A study of Mus musculus with 24 samples.

Results

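The genes described here are 9 members of the alternative activation programme of mouse macrophages: Il4ra, Stat6, Retnla, Chil3, Arg1, Arg2, Mrc1, Pdcd1lg2 and Alox15. They were chosen by gene name and are 9 of the 55487 genes in the table. Expression was measured by bulk RNA sequencing of macrophages sorted from digested tissue, in 24 libraries that form 8 groups of 3. The groups are mice of the genotype Z165KO (KO) and wild-type (WT) mice, each with lung alveolar macrophages, liver Kupffer cells, brain microglia and splenic macrophages. The labels do not describe the Z165KO allele, its driver or the age of the mice, and no group carries a further treatment. Nor do they state whether the 3 replicates of a group came from different animals. The p-values therefore reflect the spread between these samples, and part of it may be technical.

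Alternative activation is the state that macrophages enter when interleukin-4 or interleukin-13 binds a receptor that contains IL-4Rα, the product of Il4ra. Janus kinases at the receptor phosphorylate STAT6, which moves to the nucleus and binds DNA at a palindrome of TTC and GAA separated by a short spacer. In mouse macrophages its best known targets are the secreted proteins RELMα (Retnla) and Ym1 (Chil3), arginase 1 (Arg1), the mannose receptor (Mrc1), PD-L2 (Pdcd1lg2) and 12/15-lipoxygenase (Alox15). Several of these genes are also part of the resting programme of particular tissue macrophages: Chil3 is known from alveolar macrophages, and Alox15 from macrophages of the peritoneal cavity.

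The promoters of the secreted effectors Retnla and Chil3, whose levels stood apart between genotypes in 1 cell type each, are shown with that of Chil4, the close relative of Chil3, because they carry STAT-type palindromes and because the Chil pair can share reads. RefSeq promoter windows (GRCm38.p6, 250 bases before to 50 bases after the start site, written 5′ to 3′ on the gene's strand) were matched for 6 of the 9 members, and those of Arg1, Arg2 and Alox15 were not analysed here. The windows are chr16:48842359-48842658 on the plus strand for Retnla, chr3:106167515-106167814 on the minus strand for Chil3 and chr3:106219430-106219729 on the minus strand for Chil4. Capitals mark the palindrome, which is TTCNNNNGAA in Retnla and TTCNNNGAA in Chil3 and Chil4.
Retnla: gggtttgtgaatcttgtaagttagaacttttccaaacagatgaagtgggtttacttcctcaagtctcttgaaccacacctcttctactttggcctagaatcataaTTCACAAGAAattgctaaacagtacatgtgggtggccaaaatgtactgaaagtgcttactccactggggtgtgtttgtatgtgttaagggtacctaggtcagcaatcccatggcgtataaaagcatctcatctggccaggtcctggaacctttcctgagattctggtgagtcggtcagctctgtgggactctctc
Chil3: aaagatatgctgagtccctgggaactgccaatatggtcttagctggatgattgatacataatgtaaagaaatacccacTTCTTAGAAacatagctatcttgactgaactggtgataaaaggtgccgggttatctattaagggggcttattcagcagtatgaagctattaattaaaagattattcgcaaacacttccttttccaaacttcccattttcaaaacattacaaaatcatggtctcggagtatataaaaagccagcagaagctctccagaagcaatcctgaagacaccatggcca
Chil4: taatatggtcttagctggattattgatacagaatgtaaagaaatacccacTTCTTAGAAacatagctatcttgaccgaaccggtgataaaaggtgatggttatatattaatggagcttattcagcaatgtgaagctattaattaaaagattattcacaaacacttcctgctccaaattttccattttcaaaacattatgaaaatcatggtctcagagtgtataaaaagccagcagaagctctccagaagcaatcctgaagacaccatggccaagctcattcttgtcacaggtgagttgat
The Retnla match TTCACAAGAA begins 145 bases before the start site, and the C/EBP-type match TTGCTAAA (motif TTGCNNAA) begins 134 bases before it, without overlap. The Chil3 match TTCTTAGAA begins 172 bases before the start site, and the same letters begin 200 bases before it in Chil4. The RefSeq start sites of Retnla and Chil4 lie further into the gene than the GENCODE starts of these genes, whereas those of Chil3 coincide. These distances are therefore not measured from like points. TTCNNNNGAA, the spacing that STAT6 is known to prefer, was found in 2 of the 6 member windows, Retnla and Pdcd1lg2 (TTCCTCAGAA, 82 bases before the start site), and in 6.98% of all 32544 promoter windows. TTCNNNGAA was found in 1 of 6, Chil3, and in 8.33% of all windows. TTGCNNAA, searched on both strands, was found in 1 of 6, Retnla, and in 10.8% of all windows. CAGGTG, the E-box that ZEB factors are known to bind, was searched on both strands and was found in 0 of 6 member windows and in 20.3% of all windows. The Chil4 window, which is not a member's, held CAGGTG 37 bases after the start site and a TTGCNNAA match on the other strand (TTCAGCAA) 131 bases before it. That CAGGTG lies beyond the letters at which the Chil3 window ends, so its Chil3 counterpart was not searched. These matches describe letters in a window and show no binding. The Chil3 and Chil4 windows were identical at 251 of 271 aligned bases (92.6%), and their longest protein-coding transcripts at 94.4% of 1538 aligned bases. Of the 100-base windows of the Chil4 transcript, 54 of 1440 (3.75%) occurred unchanged in that of Chil3, so reads could be split between this pair. That share does not limit the error of Chil4, because Chil3 was far more abundant (20410 against 562 CPM in WT alveolar macrophages). How many Chil4 reads came from Chil3 was not tested.

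Total counts per library ranged from 50449347 to 65981787. The defining markers of each label were high in its own libraries of both genotypes. Levels are given as counts scaled to library size (CPM) and, where genes are compared with each other, as a length-scaled level (TPM). The summed CPM of 8 alveolar macrophage markers lay between 6367 and 8292 in alveolar libraries, and at 1313 or less elsewhere. Zeb2, which the series title names, had 139, 126 and 142 CPM in KO alveolar macrophages against 297, 282 and 190 CPM in WT, and the genotypes overlapped in the other cell types. B cell markers were low in KO libraries of 3 cell types, for example at 26.8 to 37.1 CPM in sum in KO spleen and 601 to 987 CPM in WT spleen.

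Across WT macrophages the members stood in different cell types, and 8 of 9 differed among the 4 types (F test in edgeR, Benjamini-Hochberg adjusted p under 0.05), beside 52.3% of all genes tested. Retnla was highest in Kupffer cells and alveolar macrophages, Chil3 and Pdcd1lg2 in alveolar macrophages, Mrc1 in all but microglia, and Alox15, Arg1 and Arg2 in Kupffer cells. Stat6 was the member not called (adjusted p = 0.268). Per transcript length, WT alveolar macrophages held a mean of 39042 TPM of Chil3, 643 TPM of Mrc1, 297 TPM of Stat6, 196 TPM of Il4ra and 59.6 TPM of Retnla. Arg2 (12.5 TPM), Pdcd1lg2 (8.75 TPM), Alox15 (2.17 TPM) and Arg1 (1.21 TPM) were far below them on that scale. In WT Kupffer cells the order on the TPM scale was Mrc1 (623), Stat6 (308), Alox15 (295), Retnla (132), Il4ra (110), Arg2 (25.1), Arg1 (13.7), Pdcd1lg2 (2.02) and Chil3 (1.47). WT microglia expressed the signalling genes, with 221 TPM of Stat6 and 96.7 TPM of Il4ra. The only other member of WT microglia above 2 TPM was Mrc1, at 11.2 TPM. Between pairs of WT cell types, 3 members differed between alveolar macrophages and Kupffer cells (Chil3 and Il4ra higher and Alox15 lower in alveolar macrophages), beside 28% of all genes. Alveolar macrophages and microglia differed in 6 members, all higher in alveolar macrophages, where 39.8% of all genes were called and 20.4% were called higher. Alveolar and splenic macrophages differed in Retnla, Chil3 and Il4ra, all higher in alveolar macrophages, beside 26.9% of all genes. Kupffer cells exceeded microglia in 5 members, beside 32.4% of genes called and 18.3% called higher. Kupffer cells exceeded splenic macrophages in Retnla, Arg1 and Alox15 and were below them in Chil3 and Mrc1, beside 8.88% of genes called higher and 7.53% called lower (16.4% in all). Microglia and splenic macrophages differed in 6 members, beside 34.9% of all genes, and Retnla was the one higher in microglia. That Retnla call rests on 33 reads in microglia and 1 read in splenic macrophages, with 1 microglia library at 0 and overlapping ranges.

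**Figure D1:**
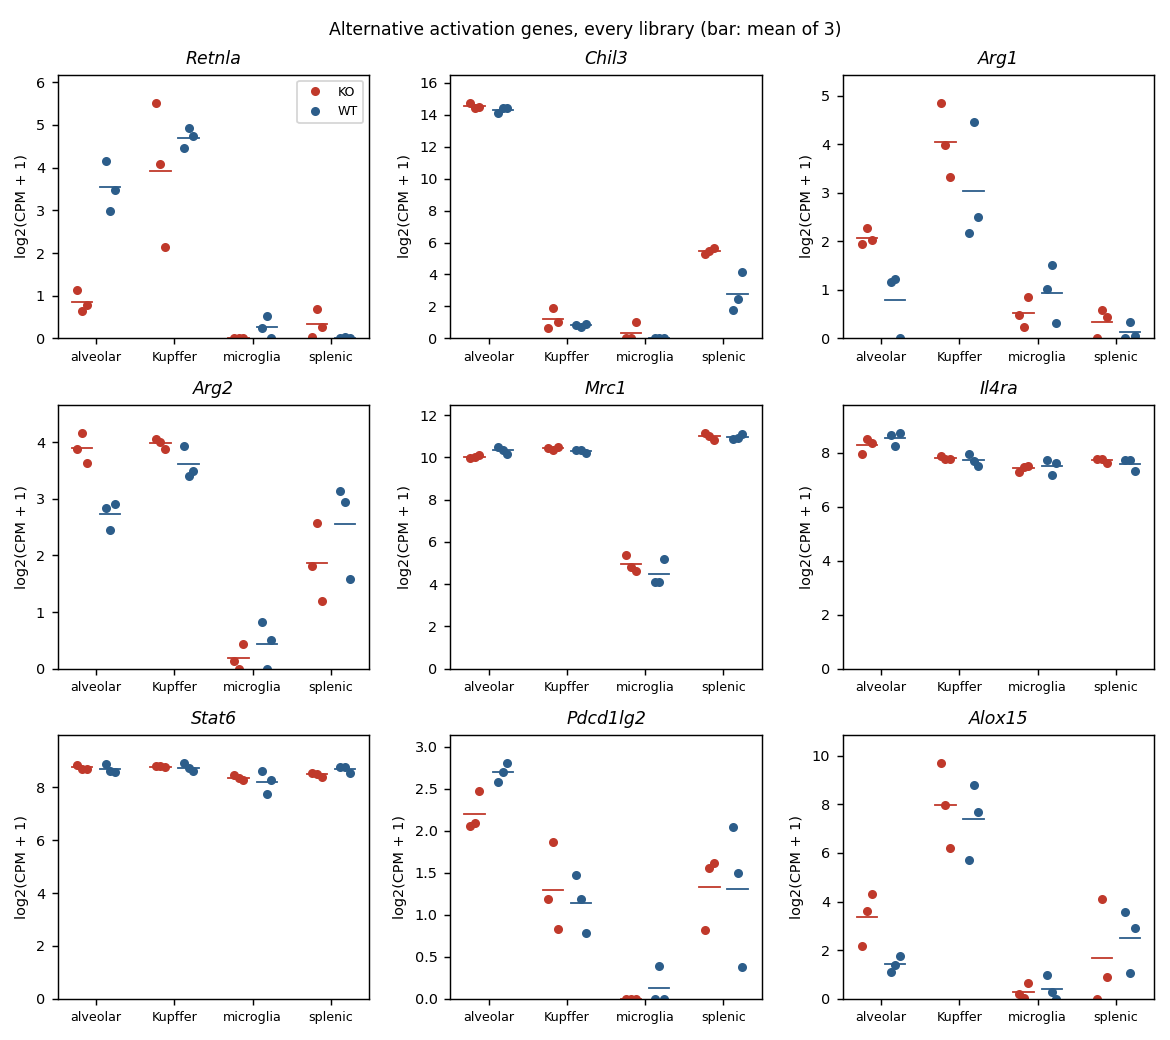
Level of each of the 9 genes in all 24 libraries, as log2(CPM + 1), with KO in red left of WT in blue and bars for group means of 3. Retnla is lower in all 3 KO alveolar libraries, Chil3 is higher in all 3 KO splenic libraries, and KO and WT overlap for Il4ra and Stat6 in every cell type, Il4ra being higher in alveolar libraries than elsewhere.

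Il4ra and Stat6, the receptor chain and the transcription factor of the pathway, were expressed in every library and neither was called between genotypes in any cell type. Il4ra (ENSMUSG00000030748, chromosome 7 from 125552120 to 125579474, plus strand, mm10) had 249, 364 and 325 CPM in KO alveolar macrophages against 402, 303 and 423 CPM in WT. The ranges overlapped, and the fitted value was log2 −0.23 ± 0.16 (SE; 95% interval −0.61 to 0.14; adjusted p = 0.638 from edgeR's quasi-likelihood test). In the other 3 cell types all libraries of both genotypes lay between 142 and 245 CPM, and the log2 fold changes were 0.10 ± 0.14 in Kupffer cells, −0.10 ± 0.18 in microglia and 0.16 ± 0.14 in splenic macrophages. Among WT cells Il4ra was highest in alveolar macrophages, at 376 ± 64.2 CPM (SD, n = 3) against 211 ± 32.2 CPM in Kupffer cells, a difference that was called (log2 0.95 ± 0.19; adjusted p = 0.00391 from edgeR). Kupffer cells, splenic macrophages (193 ± 30.2 CPM) and microglia (183 ± 36.9 CPM) followed without a called difference between neighbours.

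Stat6 (ENSMUSG00000002147, chromosome 10 from 127642986 to 127660957, plus strand) had 466, 419 and 415 CPM in KO alveolar macrophages against 472, 393 and 386 CPM in WT. Kupffer cells had 444, 449 and 432 CPM in KO against 483, 424 and 389 CPM in WT. Splenic macrophages had 377, 366 and 336 CPM in KO against 436, 441 and 370 CPM in WT. KO and WT overlapped in all of these, and also in microglia, at 356, 328 and 308 CPM in KO against 396, 215 and 309 CPM in WT. The 95% intervals of the 4 log2 fold changes together ran from −0.44 to 0.61, the widest being that of microglia (−0.41 to 0.61). These intervals do not show that the genotypes act alike. Their width reflects the spread between the 3 libraries of each group, part of which may be technical.

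Retnla was the member that passed the test between genotypes, and it did so in alveolar macrophages. Retnla (ENSMUSG00000061100, chromosome 16 from 48842551 to 48844461, plus strand) encodes RELMα, a secreted cysteine-rich protein. It had 1.20, 0.561 and 0.728 CPM in KO alveolar macrophages against 16.8, 6.86 and 10.2 CPM in WT. No KO library reached the lowest WT library, with 148 reads in KO and 1952 in WT in all. The mean was 0.828 ± 0.329 CPM in KO and 11.3 ± 5.07 CPM in WT (SD, n = 3 each), 13.6-fold lower in KO, and the fitted log2 fold change was −3.72 ± 0.47 (SE; interval −4.83 to −2.61; adjusted p = 0.0370 from edgeR). It was 1 of 9 members called, and fell, where 0.317% of the 17369 genes tested in alveolar macrophages were called and 0.132% were called lower. The call did not hold when any 1 of the 6 libraries was left out, where the adjusted p ran from 0.0571 to 0.182 and the log2 fold change from −4.11 to −3.32.

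Markers of other macrophages and of monocytes moved with Retnla in the lung. The summed CPM of 9 interstitial and border macrophage markers was 41.8, 31.8 and 53.5 in KO alveolar libraries against 127, 63.5 and 105 in WT, with all 9 fitted fold changes below 0, none of them called and none of the 9 at 0 in either group. Within WT the library highest in this sum (replicate 1) was also highest in Retnla, and the lowest (replicate 2) was also lowest. Within KO the sum was highest in replicate 3 and Retnla in replicate 1, and both were lowest in replicate 2. Of the 9, Mgl2, Cd163 and Folr2 are also known targets of alternative activation. Mgl2, a lectin of interstitial macrophages, had 3.59, 0.941 and 8.03 CPM in KO against 27.9, 17.0 and 22.7 CPM in WT. The sum of 8 monocyte markers ranged from 418 to 694 CPM in KO and from 1130 to 1611 CPM in WT, most of it Fn1, with 0 of 8 called and Vcan at 0 in KO. Eosinophil, basophil and mast cell markers ranged from 3.59 to 13.3 CPM in KO and from 2.99 to 10.8 CPM in WT, with Prg3 at 0 in both. The part of these cells in the Retnla result was not tested, and in bulk samples fewer cells of a type and less RNA per cell cannot be told apart.

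In Kupffer cells Retnla varied most among the KO libraries, at 44.9, 16.0 and 3.41 CPM against 21.0, 29.3 and 25.6 CPM in WT. The KO values spanned 13.2-fold and enclosed the WT values, which spanned 1.40-fold, so the groups overlapped (log2 −0.23 ± 0.75; adjusted p = 0.984 from edgeR). Microglia had 0 reads in all 3 KO libraries, which allows up to 0.0187 CPM over the group, against 0.186, 0.440 and 0 CPM in WT. Splenic macrophages had 0.0181, 0.620 and 0.206 CPM in KO (1, 32 and 13 reads) against 0, 0.0183 and 0 CPM in WT (1 read in all). Neither of these last comparisons passed the filter on low counts, so Retnla was not tested there. In WT the Kupffer level (25.3 ± 4.16 CPM) and the alveolar level (11.3 ± 5.07 CPM) were not called different (adjusted p = 0.299 from edgeR), and the alveolar level was above that of microglia (0.209 ± 0.221 CPM; adjusted p = 0.000361).

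Chil3 was 5.61-fold higher on average in KO than in WT splenic macrophages without passing the adjusted threshold. Chil3 (ENSMUSG00000040809, chromosome 3 from 106147554 to 106167564, minus strand) encodes Ym1, a secreted chitinase-like lectin without chitinase activity. It had 37.7, 43.7 and 50.4 CPM in KO splenic macrophages against 2.44, 4.55 and 16.5 CPM in WT. Every KO library lay above every WT library, and WT replicate 3 stood apart from the other WT libraries. The fitted log2 fold change was 2.51 ± 0.66 (SE; interval 0.96 to 4.06; adjusted p = 0.200 from edgeR). Without WT replicate 3 it was 3.70 and passed (adjusted p = 0.0279), as it did with DESeq2 (adjusted p = 0.0444) and without the low-count filter (adjusted p = 0.0426). Chil3 was the 1 member of 9 whose splenic groups did not overlap, where 20% of the genes tested there did not overlap, and 0 members were called by edgeR, against 0.747% of all genes tested. At an unadjusted p under 0.05, 1 member passed, where 11.7% of all genes did, and with DESeq2 1 member was called, in both cases Chil3. In these libraries DESeq2 called far more of all genes than edgeR, as counted under the dependence on processing.

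Neutrophil markers were higher in the same KO splenic libraries. The summed CPM of 9 neutrophil markers was 623, 731 and 827 in KO against 224, 165 and 246 in WT, with all 9 fitted fold changes above 0 and none of the 9 at 0 in either group. Of these, 4 rose by the test, where 0.129% of all genes were called higher: Ltf, Ngp, S100a8 and S100a9, which encode granule proteins and the calprotectin subunits. Ngp had 152, 208 and 222 CPM in KO against 24.4, 16.7 and 46.9 CPM in WT. WT replicate 3, the highest WT library for Chil3, was also the highest for Ngp, Camp, S100a8 and S100a9, whereas WT replicate 1 was the highest for Ltf, Retnlg, Mmp8, Cxcr2 and Csf3r. Csf3r, the neutrophil growth factor receptor, had 111, 120 and 108 CPM in KO against 116, 96.7 and 95.7 CPM in WT, which overlapped. Chil4 (ENSMUSG00000063779, chromosome 3 from 106201490 to 106219507, minus strand) had 0.995, 0.988 and 1.69 CPM in KO against 0.0718, 0.183 and 0.764 CPM in WT, the order of the WT libraries being that of Chil3 (log2 1.86 ± 0.87; adjusted p = 0.474 from edgeR). The part of Chil3 reads in these Chil4 values was not tested. Other relatives with neutrophil expression, Retnlg and Chil1, averaged 13.2 ± 0.672 and 9.45 ± 1.18 CPM in KO and 3.51 ± 2.72 and 1.71 ± 1.01 CPM in WT, with log2 fold changes of 1.97 ± 0.63 (adjusted p = 0.285) and 2.52 ± 0.43 (adjusted p = 0.0593). The part of neutrophil RNA in the Chil3 difference was not tested.

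**Figure D2:**
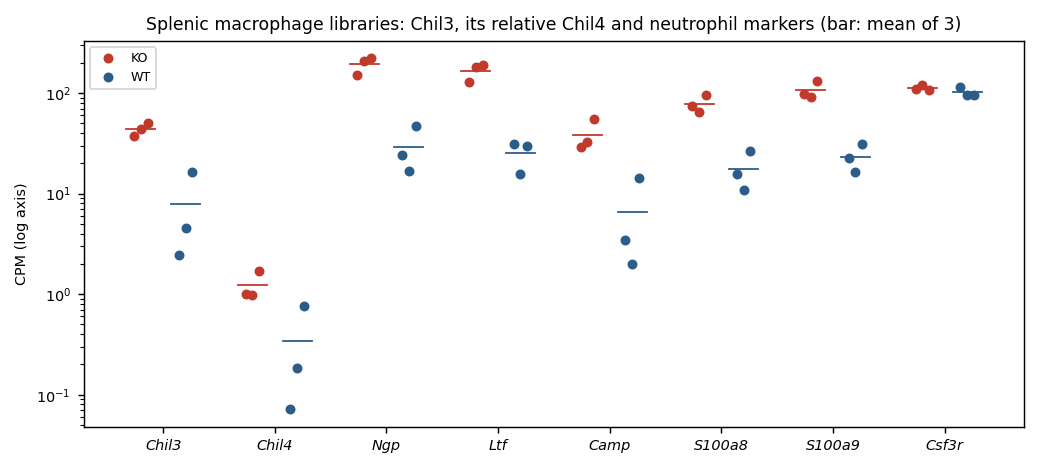
CPM on a log axis of Chil3, Chil4 and 6 neutrophil markers in the 6 splenic macrophage libraries, with KO in red left of WT in blue and bars for means of 3. Chil3, Chil4, Ngp, Ltf, Camp, S100a8 and S100a9 are higher in every KO library than in any WT library, whereas Csf3r overlaps between 96 and 120 CPM.

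In alveolar macrophages, where Chil3 was among the most abundant transcripts, it had 27557, 21697 and 23119 CPM in KO against 17373, 21877 and 21980 CPM in WT. The ranges overlapped and the log2 fold change of 0.27 ± 0.14 did not pass (interval −0.06 to 0.60; adjusted p = 0.499 from edgeR). Chil4 had 641, 720 and 660 CPM in KO against 493, 585 and 607 CPM in WT, without overlap and without passing (log2 0.29 ± 0.12; adjusted p = 0.373). The part of Chil3 reads in these Chil4 values was not tested. Neutrophil markers summed to 578, 711 and 685 CPM in KO against 286, 243 and 407 CPM in WT alveolar libraries, with 1 of 9 called (Cxcr2, which rose), and their part in the Chil values was not tested. In Kupffer cells Chil3 was low in both genotypes, at 0.546, 2.76 and 1.01 CPM in KO against 0.814, 0.635 and 0.852 CPM in WT. In microglia it had 0, 0.0181 and 1.03 CPM in KO and 0 reads in the 3 WT libraries, which allows up to 0.0191 CPM over that group, and it was not tested. All neighbours in the WT order of Chil3 differed by the test: alveolar macrophages (20410 ± 2631 CPM) above splenic macrophages (7.84 ± 7.60 CPM; adjusted p = 1.71e-05), these above Kupffer cells (0.767 ± 0.116 CPM; adjusted p = 0.00614), and these above microglia (adjusted p = 0.00643), all from edgeR.

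The arginases were higher in KO than in WT alveolar macrophages, without passing the adjusted threshold. Arg2 (ENSMUSG00000021125, chromosome 12 from 79130777 to 79156301, plus strand), the mitochondrial enzyme, had 13.8, 16.9 and 11.4 CPM in KO against 6.11, 4.45 and 6.54 CPM in WT. The groups did not overlap, the mean was 2.46-fold higher in KO, and the log2 fold change was 1.34 ± 0.25 (SE; interval 0.74 to 1.93; adjusted p = 0.104 from edgeR). DESeq2 called Arg2 (adjusted p = 0.000161). In alveolar libraries DESeq2 called far more of all genes than edgeR, as counted under the dependence on processing. Arg1 (ENSMUSG00000019987, chromosome 10 from 24915221 to 24927484, minus strand), the cytosolic enzyme and the classic STAT6 target, had 2.83, 3.81 and 3.05 CPM in KO against 1.25, 1.32 and 0 CPM in WT. The groups did not overlap, but the WT library without a read left the fold wide (log2 1.92 ± 1.23; interval −0.97 to 4.81; adjusted p = 0.601). On the TPM scale the KO alveolar means were 29.7 for Arg2 and 4.39 for Arg1, against 12.5 and 1.21 in WT.

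Elsewhere the arginases overlapped between genotypes. In Kupffer cells Arg1 had 27.9, 14.8 and 8.96 CPM in KO against 3.53, 20.9 and 4.67 CPM in WT, with KO replicate 1 and WT replicate 2 highest (log2 0.83 ± 0.74; adjusted p = 0.912). Arg1 is also abundant in hepatocytes, whose 8 markers summed to 123, 179 and 188 CPM in KO and 146, 176 and 347 CPM in WT Kupffer libraries, and their part in the Arg1 values was not tested. Arg2 had 15.6, 15.0 and 13.8 CPM in KO Kupffer cells against 14.3, 9.62 and 10.2 CPM in WT (log2 0.40 ± 0.21; adjusted p = 0.784). In splenic macrophages Arg2 had 2.51, 4.96 and 1.28 CPM in KO against 7.86, 6.74 and 2.01 CPM in WT (log2 −0.86 ± 0.65; adjusted p = 0.681), and replicate 3 was the lowest of both groups. Splenic Arg1 stayed at or below 0.504 CPM and microglial Arg1 and Arg2 at or below 1.83 CPM in every library. Among WT cells both arginases were highest in Kupffer cells (Arg1 9.72 ± 9.74 CPM, Arg2 11.4 ± 2.52 CPM). Neighbours in these orders were not called different, apart from Arg2 in splenic macrophages (5.54 ± 3.11 CPM) above microglia (0.393 ± 0.383 CPM; adjusted p = 0.0103 from edgeR).

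Mrc1 and Pdcd1lg2, the surface proteins of the set, were lower in every KO alveolar library than in any WT one, by small folds that were not called. Mrc1 (ENSMUSG00000026712, chromosome 2 from 14229392 to 14332057, plus strand), the mannose receptor CD206, had 1004, 1041 and 1110 CPM in KO against 1443, 1310 and 1162 CPM in WT (log2 −0.29 ± 0.10; interval −0.53 to −0.04; adjusted p = 0.323 from edgeR). Pdcd1lg2 (ENSMUSG00000016498, chromosome 19 from 29410919 to 29471161, plus strand), the PD-1 ligand PD-L2, had 3.15, 3.25 and 4.55 CPM in KO against 4.97, 5.51 and 5.98 CPM in WT (log2 −0.57 ± 0.28; adjusted p = 0.480). Its relative Cd274, encoding PD-L1, averaged 102 ± 23.2 CPM in KO and 187 ± 34.8 CPM in WT alveolar macrophages (log2 −0.86 ± 0.21; adjusted p = 0.153). With Retnla below and Arg1, Arg2 and Alox15 above, 6 of the 9 members did not overlap between alveolar genotypes, where 19.4% of all genes tested did not overlap, and 4 members had an unadjusted p under 0.05, where 12.5% of all genes did.

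In the other cell types Mrc1 overlapped between genotypes. It had 2286, 2045 and 1838 CPM in KO against 1886, 1953 and 2210 CPM in WT splenic macrophages, and 1409, 1292 and 1444 CPM in KO against 1319, 1306 and 1172 CPM in WT Kupffer cells. Microglia had 40.9, 27.2 and 23.6 CPM in KO against 16.4, 16.1 and 35.2 CPM in WT, with WT replicate 3 standing among the KO libraries (log2 0.44 ± 0.35; adjusted p = 0.987). Interstitial and border macrophage markers, which would mark the Mrc1-rich macrophages of brain borders, summed to between 3.63 and 4.56 CPM in KO and between 3.75 and 6.46 CPM in WT microglia. In WT, splenic (2016 ± 171 CPM), alveolar (1305 ± 141 CPM) and Kupffer (1266 ± 81.3 CPM) levels of Mrc1 were not called different between neighbours (splenic over alveolar log2 0.72 ± 0.26; adjusted p = 0.0678, and 0.0308 with DESeq2), and the Kupffer level was above microglia (22.6 ± 11.0 CPM; adjusted p = 4.23e-07 from edgeR). Pdcd1lg2 stayed at or below 3.12 CPM in every Kupffer and splenic library, and in microglia it had reads in 1 WT library alone, at 0.306 CPM.

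Alox15 varied widely between libraries of the same group. Alox15 (ENSMUSG00000018924, chromosome 11 from 70344152 to 70352031, minus strand) encodes 12/15-lipoxygenase, which oxygenates arachidonic and linoleic acid. In Kupffer cells it had 825, 249 and 73.0 CPM in KO against 51.9, 442 and 202 CPM in WT. The values spanned 11.3-fold within KO and 8.53-fold within WT, and the groups interleaved (log2 0.72 ± 0.97; interval −1.56 to 3.01; adjusted p = 0.951 from edgeR). In alveolar macrophages it had 3.46, 11.4 and 19.0 CPM in KO against 1.16, 1.63 and 2.35 CPM in WT. There every KO library lay above every WT library, 6.58-fold higher in the mean (log2 2.73 ± 0.61; interval 1.29 to 4.16; adjusted p = 0.130 from edgeR). DESeq2, which called far more of all genes there than edgeR, called the difference (adjusted p = 0.000263). In splenic macrophages it had 0, 16.2 and 0.854 CPM in KO against 10.8, 1.08 and 6.49 CPM in WT, and in microglia no library reached 1 CPM.

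The summed level of large peritoneal macrophage markers was high where Alox15 was high in the Kupffer libraries, and these cells are known for high Alox15. The sum of 8 such markers was 1059, 399 and 193 CPM in KO against 262, 604 and 385 CPM in WT. The 4 libraries highest in Alox15 (KO replicate 1, WT replicate 2, KO replicate 2 and WT replicate 3) were the 4 highest in this sum, in the same order. The lowest sum was in KO replicate 3, whereas Alox15 was lowest in WT replicate 1. Gata6, the transcription factor that defines these cells, had 10.3, 2.86 and 2.01 CPM in KO against 1.70, 6.29 and 3.20 CPM in WT. Prg4, a lubricating glycoprotein, had 425, 114 and 43.2 CPM in KO against 22.3, 184 and 77.3 CPM in WT, the same order of all 6 libraries as Alox15. Selp and F5 also had that order. Cxcl13 and Icam2 of the same list did not follow Alox15 within WT. Cxcl13 had 74.2, 70.8 and 72.2 CPM there, highest in replicate 1, and Icam2 had 98.6, 107 and 130 CPM, highest in replicate 3. None of the 8 markers was at 0 in either Kupffer group and none was called. Fn1, on the list of monocyte markers, had 3282, 931 and 295 CPM in KO against 277, 1663 and 540 CPM in WT, again high where Alox15 was high. The other 7 monocyte markers summed to 243, 260 and 117 CPM in KO against 299, 277 and 258 CPM in WT, highest in WT replicate 1, the library lowest in Alox15. Retnla and Arg1 were also highest in KO replicate 1 with WT replicate 2 next. The part of such cells in the Kupffer values of Alox15, Arg1 and Retnla was not tested.

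**Figure D3:**
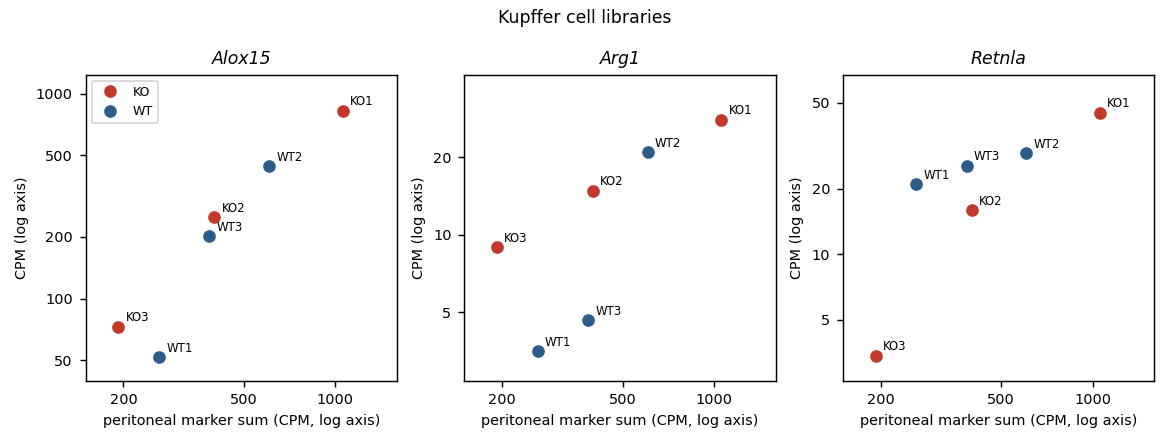
CPM of Alox15, Arg1 and Retnla in the 6 Kupffer cell libraries against the summed CPM of 8 large peritoneal macrophage markers, both axes logarithmic, with KO libraries in red and WT libraries in blue. Alox15 lies between 51.9 and 825 CPM and is high where the marker sum is high in both genotypes, and the points of KO and WT interleave.

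In alveolar libraries the same 8 markers summed to 17.3, 19.0 and 18.2 CPM in KO against 10.1, 15.9 and 14.0 CPM in WT, with 0 of the 7 tested called. Prg4 had 3.13, 3.01 and 2.49 CPM in KO against 0.615, 0.264 and 0.314 CPM in WT, higher in every KO library and not called (log2 2.89 ± 0.50; adjusted p = 0.0844 from edgeR). Gata6 had 0, 0.991 and 0 CPM in KO against 0, 0.0330 and 1.33 CPM in WT. The part of such cells in the alveolar Alox15 values was not tested. Among WT cells Alox15 stood at 232 ± 197 CPM in Kupffer cells, above splenic macrophages (6.12 ± 4.87 CPM; adjusted p = 0.00809 from edgeR). The splenic, alveolar (1.71 ± 0.597 CPM) and microglial (0.387 ± 0.499 CPM) levels were not called different between neighbours.

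In Kupffer cells 0 of the 9 members tested were called by edgeR, 0 had an unadjusted p under 0.05 and 0 were called by DESeq2, where 0.0629% of all genes were called by edgeR and 6.94% had an unadjusted p under 0.05. None of the 9 had groups without overlap, against 12.9% of all genes. In microglia 6 members were tested and 0 were called by either tool or at an unadjusted p under 0.05, where edgeR called 0% of 17880 genes (794 genes, or 4.44%, at an unadjusted p under 0.05, and 93 with DESeq2) and 11% of genes did not overlap. The 3 members not tested in microglia, Retnla, Chil3 and Pdcd1lg2, and Retnla in the spleen were those under the filter on low counts.

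**Figure D4:**
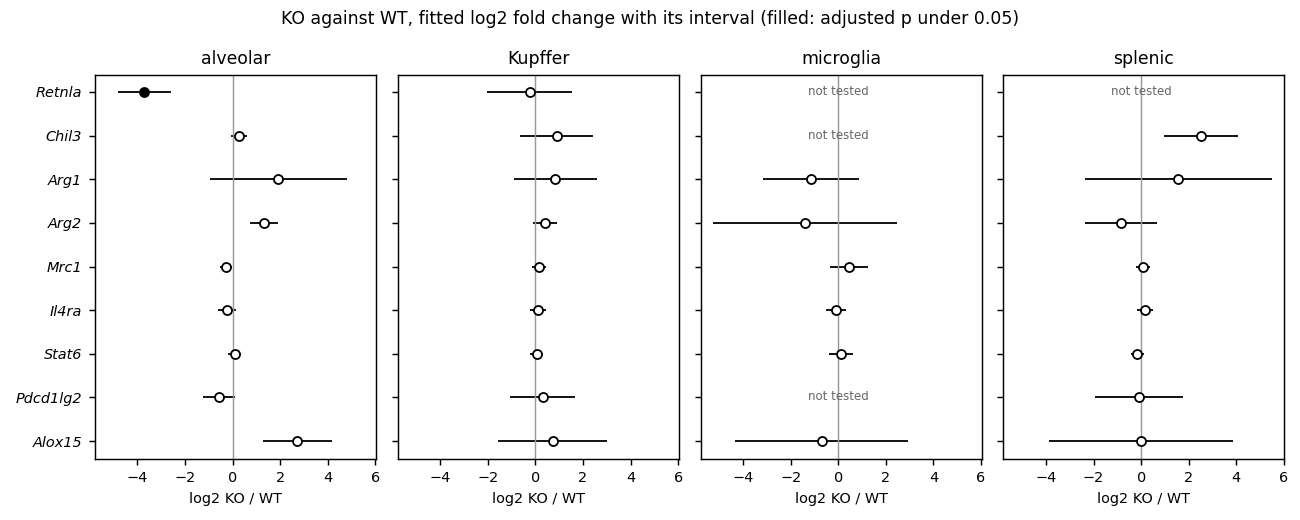
Fitted log2 fold change of KO over WT with its 95% interval for each member in each cell type, with filled symbols for adjusted p under 0.05. The alveolar Retnla value of −3.72 is the 1 filled point, the interval of alveolar Mrc1 lies below 0, the intervals of alveolar Arg2 and Alox15 and splenic Chil3 lie above 0, and members that were not tested are marked.

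Whether the genotype effect differed between cell types was tested in 1 fit of all 24 libraries, and 0 of 9 members were called by edgeR, where 0.524% of all genes were. Retnla came nearest (adjusted p = 0.0694), was called with DESeq2 (adjusted p = 1.42e-05) and was the 1 member with an unadjusted p under 0.05. Chil3 had an adjusted p of 0.447 and was called with DESeq2 (adjusted p = 0.0273), so that 2 members were called by that tool. DESeq2 called far more of all genes than edgeR in this test and in that of the mean effect, as counted under the dependence on processing. The mean genotype effect over the 4 cell types was called for 0 members by edgeR, where 0.624% of all genes were (0.154% higher), and for 1 by DESeq2. That member was Chil3 (log2 2.75 ± 0.71; adjusted p = 0.108 from edgeR and 0.000136 from DESeq2), whose fitted mean includes microglia, where WT had no read. Of the neutrophil markers tested, 9 of 9 in alveolar and 9 of 9 in splenic macrophages had fitted values above 0. In Kupffer cells 6 of 6 and in microglia 5 of 5 did, none of them called. The part of neutrophil RNA in the mean Chil3 effect was not tested. Pdcd1lg2 was the other of 2 members with an unadjusted p under 0.05 (log2 −1.47 ± 0.60; adjusted p = 0.410), and its mean likewise includes microglia without a KO read.

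Of 81 further genes on 6 lists around the pathway, 67 were tested in alveolar macrophages and 2 were called, where 0.317% of all genes tested were. Myc, a STAT6-responsive regulator on the list of 8 transcriptional regulators, fell: it had 88.5, 90.9 and 118 CPM in KO against 238, 202 and 210 CPM in WT, without overlap (log2 −1.10 ± 0.13; adjusted p = 0.0263 from edgeR). In that list 7 of 8 fitted values were below 0, with a median log2 of −0.53 beside −0.015 over all genes tested. The same list had 7 of 8 values below 0 in Kupffer cells (median −0.60) and 6 of 8 in microglia (median −0.29). In splenic macrophages 3 of 8 were below 0 (median 0.037). Lower values of this list were therefore not particular to alveolar macrophages. Egr2, a zinc-finger factor that acts downstream of STAT6, had 423, 363 and 352 CPM in KO against 1016, 1423 and 818 CPM in WT, without overlap and just short of the threshold (log2 −1.50 ± 0.23; adjusted p = 0.0707). In the fit of all 24 libraries its genotype effect was called different between cell types (adjusted p = 0.0238 from edgeR), where 0.524% of all genes were. Cebpb (920 ± 159 CPM in KO, 1036 ± 166 CPM in WT) and Pparg (333 ± 13.9 CPM in KO, 350 ± 19.8 CPM in WT), which sustain alternative activation and alveolar identity, were not called.

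Cdh1, encoding E-cadherin, was the gene that rose among 17 tested of 18 other targets of alternative activation, at 226 ± 37.1 CPM in KO and 120 ± 4.88 CPM in WT (log2 0.94 ± 0.12; adjusted p = 0.0402 from edgeR). It is known as an interleukin-4 target of mouse macrophages, and the part of interleukin-4 signalling in its rise was not tested. Zeb2 averaged 136 ± 8.70 CPM in KO and 256 ± 57.7 CPM in WT in the same libraries. The part of Zeb2 in the Cdh1 rise was not tested either. The most abundant genes of that list, Clec7a, Tgm2, Il1rn and Cd36, had log2 fold changes between −0.13 and 0.34 and were not called. The list's median was −0.32, with 12 of 17 values below 0. Of 14 genes of interleukin-4 and interleukin-13 signalling, 10 were tested and 0 called, with Irs2, an adaptor of the receptor, at 234 ± 31.4 CPM in KO and 398 ± 46.4 CPM in WT (log2 −0.74 ± 0.14; adjusted p = 0.108). Of 12 arginine and polyamine genes, 10 were tested and 0 called, the arginine transporter Slc7a2 having 358 ± 92.4 CPM in KO and 568 ± 61.4 CPM in WT (log2 −0.65 ± 0.19; adjusted p = 0.227). Among 12 genes of classical activation, 11 were tested and 0 called. Their median log2 was −0.77, with 8 of 11 values below 0, so lower values were not particular to the lists of alternative activation. Tnf averaged 50.9 ± 19.2 CPM in KO and 646 ± 818 CPM in WT, a WT spread larger than its mean. At an unadjusted p under 0.05, 21 of the 67 genes passed, 13 below 0 and 8 above, where 12.5% of all genes did.

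In the other cell types no gene of the 6 lists was called by edgeR. At an unadjusted p under 0.05 there were 9 of 70 tested in Kupffer cells (6.94% of all genes), 6 of 58 in microglia (4.44% of all genes) and 20 of 66 in splenic macrophages (11.7% of all genes). In splenic macrophages the relatives of the members had a median log2 of 1.41 over 8 tested, beside −0.0029 over all genes. They include Chil4, Chil1 and Retnlg, given above beside the neutrophil markers, and Retnlg is itself on the neutrophil list. The part of neutrophil RNA in that median was not tested in splenic macrophages. Of the receptor chains there, Il13ra1 averaged 55.4 ± 5.55 CPM in KO and 95.0 ± 3.81 CPM in WT (log2 −0.74 ± 0.12; adjusted p = 0.0518), and Il2rg, the common gamma chain, which lymphocytes also express, 32.3 ± 3.90 CPM in KO and 88.9 ± 30.9 CPM in WT (log2 −1.41 ± 0.24; adjusted p = 0.0596). This pair was chosen after its values were seen. B cell markers fell in the same libraries, 8 of 8 by the test, where 0.618% of all genes were called lower, and their part in the Il2rg values was not tested.

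Across the 24 libraries, which share 4 cell types and so differ mainly by tissue, each member's level was set beside those of 14209 genes with a mean of at least 1 CPM by Pearson's r of log2(CPM + 1). The genes most like Alox15 were Prg4 (r = 0.97), Serpinb2 (0.96) and Saa3 (0.95), and those most like Arg1 were Ltbp1 (0.91), Saa3 (0.90) and Prg4 (0.89). Retnla was most like Emilin1 (0.93), Cd300lg (0.93) and Fam174b (0.92). Emilin1, an extracellular matrix glycoprotein, averaged 17.7 ± 10.5 CPM in KO and 244 ± 41.8 CPM in WT alveolar macrophages, and 164 ± 88.3 CPM in KO and 239 ± 14.9 CPM in WT Kupffer cells. Chil3 was most like Gm5530, Wfdc21 and Cox6b2 (0.98 to 0.99) and Mrc1 like Acp5, Pirb and Tlr8 (0.99 each). Arg2 was most like Smpdl3a (0.94), Pdcd1lg2 like Rab11fip1 (0.94) and Stat6 like Ap3d1 (0.89). Between members the highest values were 0.86 for Arg1 and Alox15, both high in Kupffer libraries, and 0.82 for Chil3 and Il4ra, both high in alveolar libraries.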

How the data were processed

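Per the labels, RNA came from 100000 sorted macrophages per sample and libraries were made with a SMARTer Ultra Low kit. The authors deposited whole-number gene counts, CPM and TPM for each library. The deposited TPM of 4 splenic columns summed above the expected total because of repeated rows and was handled as a score, so splenic TPM is approximate. The submitters' processing notes name the build mm10 and DRAGEN, STAR, Subread, featureCounts and Salmon. Strand and multi-mapping settings are not given in the sources used here. Of 55774 rows, 287 exact repeats were dropped and 0 lacked a gene identifier.

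The 9 genes and all lists were chosen with earlier results of these data known. Besides the 9, Zeb2, Maf and close relatives, genes were named if called, if among the 4 highest of a list, or if among the 3 most alike by correlation. The genes most like Il4ra are not reported here. Markers were named from the lists of cell types.

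Counts were tested in R 4.3.3 by the quasi-likelihood method of edgeR 4.0.16 (two-sided, TMM scaling, filterByExpr with a minimum count of 10, Benjamini-Hochberg over all genes tested, called at adjusted p under 0.05), separately in the 6 libraries of each cell type, in the 12 WT libraries, and in all 24 for effects across cell types. The script was tested on simulated data. Alternatives were DESeq2 1.42.0, its size factors, no filter, a replicate block, all 24 libraries in 1 fit and leaving out each library. Each log2 fold change sets KO over WT. With 3 against 3, an exact permutation test cannot go below 0.1 and was not used. Limits for 0 reads are 3 reads over the group and cover counting error only. All replicates of a group differed by more than sampling noise (smallest chi-square per degree of freedom 34.7). Gene coordinates are from GENCODE M21 and promoter windows from RefSeq, compared with Biopython 1.88.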

Additional observations from a re-analysis of the deposited data

How the results depend on the processing

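Of 1490 alternative values for the 88 member results, 1413 kept direction and side of the threshold, 14 lost a call, 26 gained one and 37 turned sign. Alveolar Retnla kept its direction everywhere, and lost its call with the replicate block (adjusted p = 0.123) and in the fit of all 24 libraries (adjusted p = 0.0970). It held with DESeq2, with DESeq2 size factors and without a filter. Interaction calls for Retnla were also gained without a filter (adjusted p = 0.0205). Leaving out 1 library gave adjusted p-values of 0.0303 to 0.169, the call being gained without Kupffer KO replicate 3 (0.0378), microglia WT replicate 3 (0.0303) or splenic KO replicate 1 (0.0383). The mean Chil3 effect was also called without a filter (adjusted p = 0.0479) and without splenic WT replicate 3 (0.0309). Among WT cells, the Arg1 difference was lost without Kupffer replicate 2 (adjusted p = 0.138) or splenic replicate 3 (0.0564), and that of Arg2 without microglia replicate 3 (0.0535), and that of Stat6 was gained without microglia replicate 1 (0.0425). The Mrc1 difference between splenic and alveolar macrophages was gained in the fit of all 24 libraries (0.0295) and without microglia replicate 2 (0.0392) or 3 (0.0030).

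Counts of called genes moved as follows. In alveolar macrophages 55 genes became 163 without a filter, 922 with DESeq2, 297 with all 24 libraries, 0 with the replicate block and 0 to 29 when 1 library was left out. In Kupffer cells 12 became 76, 413, 48, 0 and 0 to 15, and in microglia 0 became 13, 93, 19, 0 and 0 to 1. In splenic macrophages 133 became 330 without a filter, 903 with DESeq2, 10 with the replicate block and 18 to 90 when 1 library was left out. Genes with an effect differing between cell types numbered 957 with DESeq2, 58 with the block and 74 to 159 with 1 library left out, against 126. The mean effect gave 634, 87 and 104 to 176, against 150. The cause was not tested. Same-numbered KO and WT libraries did not deviate together (r from −0.0941 to 0.0929 over 12 pairs, 0 above 0.1), so no pairing of KO with WT was used. Between cell types, 3 of 36 same-numbered pairs were above 0.1 (r from −0.0686 to 0.160), all of them WT replicate 1. The labels do not say whether same-numbered libraries of different cell types share an animal, and the WT and 24-library fits treat them as independent. The block turned splenic Pdcd1lg2 (log2 0.26) and the mean Alox15 effect (−0.026), and splenic Alox15 was 0.00014 with DESeq2 size factors and 0.0038 with DESeq2.

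Leaving out 1 library turned these log2 values, whose full ranges were: in Kupffer cells Retnla −1.42 to 0.27, Stat6 −0.014 to 0.13, Pdcd1lg2 −0.23 to 0.63 and Alox15 −0.56 to 1.60; in microglia Il4ra −0.27 to 0.045, Stat6 −0.11 to 0.36 and Alox15 −2.24 to 1.21; in the spleen Mrc1 −0.015 to 0.17, Pdcd1lg2 −0.57 to 0.60 and Alox15 −3.81 to 0.66. For the mean effect they were Arg2 −0.55 to 0.10, Il4ra −0.063 to 0.015, Stat6 −0.036 to 0.080 and Alox15 −0.27 to 1.15. Among WT types they were Arg1 in alveolar macrophages against microglia −0.78 to 0.37, Arg2 in alveolar against splenic macrophages −0.43 to 0.26, Il4ra in Kupffer cells against splenic macrophages −0.19 to 0.018 and in microglia against splenic macrophages −0.26 to 0.068, and Stat6 in alveolar macrophages against Kupffer cells −0.051 to 0.14. Levels of a few reads per library, such as Retnla in microglia and spleen, allow no statement on genotype.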
